A study of Mus musculus with 4 samples.

Results

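The genes described here are 10 immunosuppressive cytokine and adenosine genes: the TGF-beta ligands Tgfb1, Tgfb2 and Tgfb3, the cytokines Il10 and Il6, the prostaglandin enzymes Ptgs2 and Ptges, the ectonucleotidases Nt5e and Entpd1, and the tryptophan-degrading enzyme Ido1. They were chosen by name, as products through which tumour and myeloid cells are known to restrain immune attack, and all 10 were present among the 29835 genes of the count matrices. The measurements were unique molecular identifiers (UMIs, 1 for each captured mRNA molecule) in single cells of mouse ascites. Each library stood for 1 treatment group and held cells pooled from several animals, so no value below carries a spread between animals and no test between groups was possible.

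All mice were C57BL/6 and carried ID8-Trp53-/- cells, a Trp53-deficient ovarian surface epithelial line placed in the peritoneal cavity and left for 7 days before treatment. The control group received DMSO and an IgG2a isotype antibody. The BTYNB group received BTYNB, a small-molecule inhibitor of the RNA-binding protein Igf2bp1, together with the isotype antibody. The anti-PD-1 group received the blocking antibody RMP1-14 together with DMSO, and the combination group received BTYNB and RMP1-14. The labels give the doses as 50 mg/kg for the inhibitor and 100 ng for an antibody, while the study's methods state other amounts, and the difference could not be settled. Ascites was taken at about 3 mL, freed of erythrocytes and frozen. Dead cells were removed where applicable, a step whose use in each group the labels do not give.

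The TGF-beta ligands are secreted bound to a latency peptide and act, after release, through a receptor pair and SMAD proteins to dampen T cell and NK cell effector functions. Ptgs2 and Ptges carry out consecutive steps of prostaglandin E2 synthesis. Entpd1 (CD39) converts extracellular ATP to AMP and Nt5e (CD73) converts that AMP to adenosine, which signals to T cells through adenosine receptors. In ovarian cancer ascites these products are known from tumour cells, macrophages and regulatory T cells alike.

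Cells were assigned to gates by their UMIs. Tumour-gated cells had at least 5 UMIs of Krt7, Krt8, Krt18, Krt19 and Wt1 together and 0 of Ptprc. Myeloid-gated cells had at least 3 UMIs of Lyz2 and Csf1r and at most 2 keratin UMIs. T-gated cells had at least 2 UMIs of the Cd3 genes, and regulatory T (Treg) cells were those with at least 1 Foxp3 UMI. B-gated cells had at least 3 UMIs of Cd79a and Cd79b. In the order control, BTYNB, anti-PD-1, combination, which holds for every list of 4 values without names, the tumour gate had 7114, 3606, 10923 and 4369 cells and the myeloid gate 292, 3134, 384 and 1258. The T gate held 22, 2481, 30 and 158 cells and the B gate 31, 3475, 39 and 286, so T and B cells were compared between BTYNB and combination only. Levels are a gene's UMIs scaled to 1000000 UMIs of the gated cells (CPM) with exact Poisson 95% intervals, which cover counting error only.

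The libraries held 7074 to 19247 cells and 78603888 to 114600397 UMIs, and any pair shared 0 to 4 cell barcodes. The BTYNB library stood apart: its lowest UMI number of a cell was 869, against 3533 to 5115 in the others, and 32.98% of its cells met no gate, against 5.28% to 16.9%. The 11 tumour markers summed to 2856 to 3552 CPM in the tumour gates. The 10 macrophage and monocyte markers summed to 12556 to 20571 CPM in the myeloid gates. Both lists hold genes that define their gate (Krt7, Krt8, Krt18, Krt19 and Wt1, or Lyz2 and Csf1r), so the gating itself raised these levels. In control, all 11 tumour markers were also above 0 in the myeloid gate (265 CPM). All 10 macrophage and monocyte markers were also above 0 in its tumour gate (39.4 CPM). Tumour RNA was present outside the tumour gate. The summed level of 6 tumour markers that no gate used reached 2.63% to 15.1% of its tumour-gate level in myeloid cells, but 21.1% (BTYNB) and 49.8% (combination) in T cells and 52.0% and 81.3% in B cells. Cells with more than 2 keratin UMIs supplied 18.3% and 49.5% of the UMIs of the T gate and 44.5% and 74.7% of those of the B gate in the BTYNB and combination libraries. T and B levels are therefore given also without those cells.

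To show the promoters of the TGF-beta ligands whose levels ran in opposite directions across gates, the 250 bases before the RefSeq transcription start are printed for Tgfb1 (chr7:25686752-25687001, plus strand) and Tgfb2 (chr1:186705990-186706239, minus strand), 5′ to 3′, on GRCm38.p6. The counts themselves were made on GRCm39, so these positions are those of the older build. Capitals mark matches, on either strand, to the 4 motifs searched: the TATA box TATAAA, the GC box GGGCGG, the E-box motif CACGTG and the cyclic AMP response element TGACGTCA. No match overlapped another in these windows.

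Tgfb1: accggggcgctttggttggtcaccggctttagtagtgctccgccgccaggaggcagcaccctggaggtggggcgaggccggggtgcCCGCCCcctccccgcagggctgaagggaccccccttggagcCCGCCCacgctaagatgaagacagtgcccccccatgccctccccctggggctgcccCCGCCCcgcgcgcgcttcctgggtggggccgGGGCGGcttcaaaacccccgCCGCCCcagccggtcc

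Tgfb2: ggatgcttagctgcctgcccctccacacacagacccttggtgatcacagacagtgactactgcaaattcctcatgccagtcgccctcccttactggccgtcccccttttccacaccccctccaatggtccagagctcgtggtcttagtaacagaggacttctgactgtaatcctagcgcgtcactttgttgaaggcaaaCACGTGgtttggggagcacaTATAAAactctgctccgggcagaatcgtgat

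The Tgfb1 window held 5 GC boxes and was 75.2% G or C, and the Tgfb2 window held 1 TATA box that began 31 bases before the start, 1 E-box and no GC box, and was 53.6% G or C. Of 32851 RefSeq windows of the same length, 32.7% held a GC box, 12.4% a TATA box, 6.02% the E-box and 1.55% the cyclic AMP response element, and the median window was 52.4% G or C. Among the other members with an entry, Nt5e held 4 GC boxes that overlapped in pairs, Ptges 2 and Ptgs2 1, and Il6 and both Entpd1 entries held no match. In all, 7 of the 10 members had an entry. The windows of Tgfb3, Il10 and Ido1 are not shown.

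**Figure D1:**
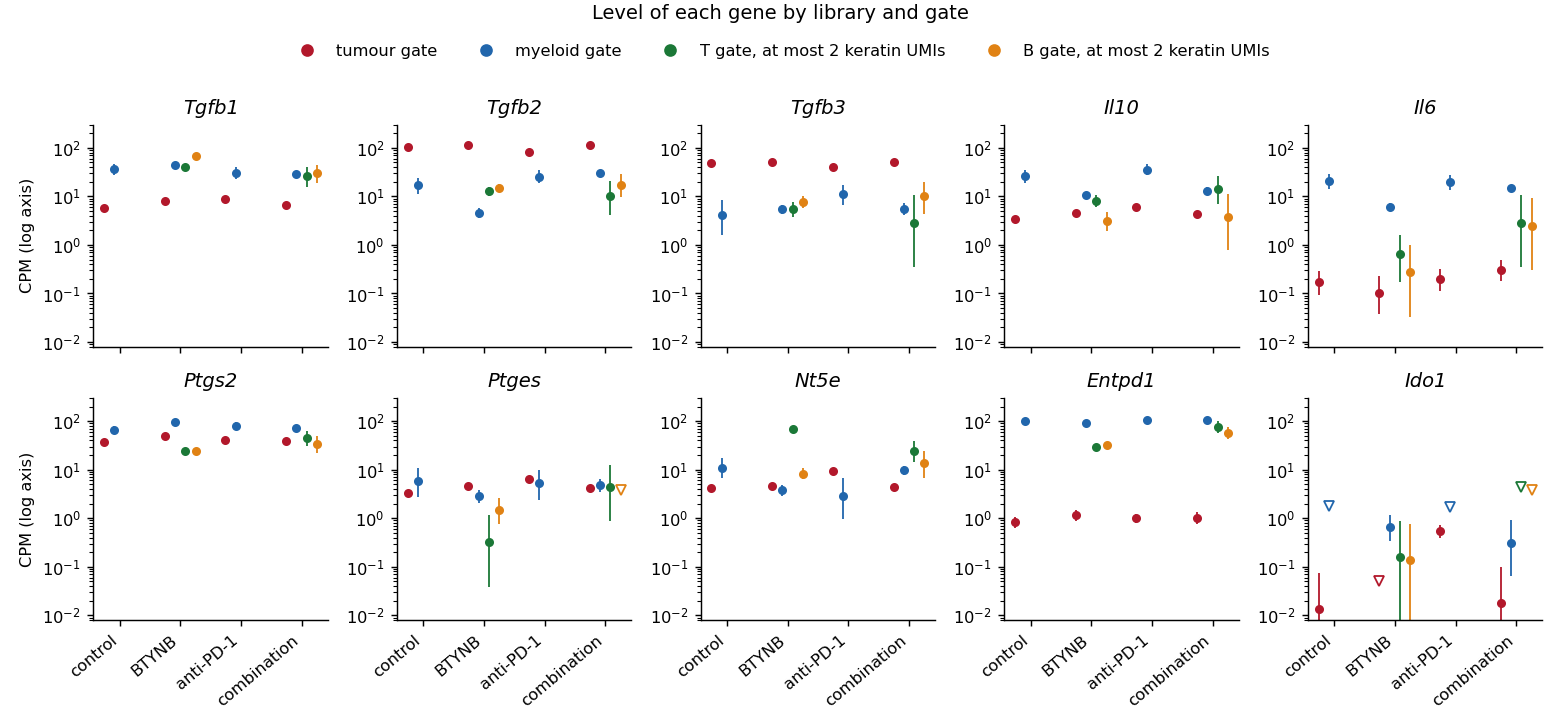
Level of each member (CPM, log axis) by library, for the tumour and myeloid gates and for T- and B-gated cells with at most 2 keratin UMIs where the library held at least 50 such cells. Points are levels, bars are exact Poisson 95% intervals (counting error only, 1 library per group) and open triangles are the limit that a count of 0 allows. Tgfb2 and Tgfb3 were highest in tumour-gated cells in each library, Entpd1 and Il6 were highest in myeloid cells, and Nt5e was highest in T cells of BTYNB.

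Between libraries, a member counted as measured when the 2 libraries together held at least 20 UMIs of it in the gate, and as past 2-fold when the log2 ratio of CPM + 1 was at least 1 in size. In tumour cells 0 of 8 measured members were past 2-fold with BTYNB against control, where 0.707% of all measured genes were (0.279% higher, 0.429% lower). Against control, 1 of 10 was past 2-fold with anti-PD-1 (Nt5e, higher), beside 2.18% of genes (1.90% higher, 0.283% lower). In combination against anti-PD-1 it was 0 of 10, beside 2.17% (0.433% higher, 1.74% lower), and in combination against BTYNB 0 of 9, beside 0.118% (0.0787% higher, 0.0394% lower). The tumour-cell levels of these genes thus differed mostly by less than 2-fold between libraries.

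Myeloid cells showed more. In BTYNB against control, 4 of 9 measured members were past 2-fold, all lower (Tgfb2, Il10, Il6 and Nt5e), beside 14.9% of genes (6.50% higher, 8.41% lower). In anti-PD-1 against control it was 2 of 8, Tgfb3 higher and Nt5e lower, beside 4.40% (2.26% higher, 2.14% lower). In combination against anti-PD-1 it was 2 of 9, Nt5e higher and Il10 lower, beside 9.66% (5.19% higher, 4.47% lower). In combination against BTYNB it was 3 of 9, all higher (Tgfb2, Il6 and Nt5e), beside 3.56% (2.22% higher, 1.34% lower). The contrasts share libraries and are not independent of each other. Between BTYNB and combination, 3 of 7 members were past 2-fold in the T gate (Tgfb2 and Tgfb3 higher, Nt5e lower in combination), beside 16.8% (8.25% higher, 8.56% lower), and 1 of 8 in the B gate (Tgfb1, lower in combination), beside 10.8% (2.17% higher, 8.61% lower). The median log2 ratio of the measured members was 0.28, 0.35, -0.20 and -0.04 in tumour cells over the 4 contrasts in the order above and -0.83, 0.20, -0.11 and 0.28 in myeloid cells, where the median of all measured genes lay between -0.05 and 0.05.

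**Figure D2:**
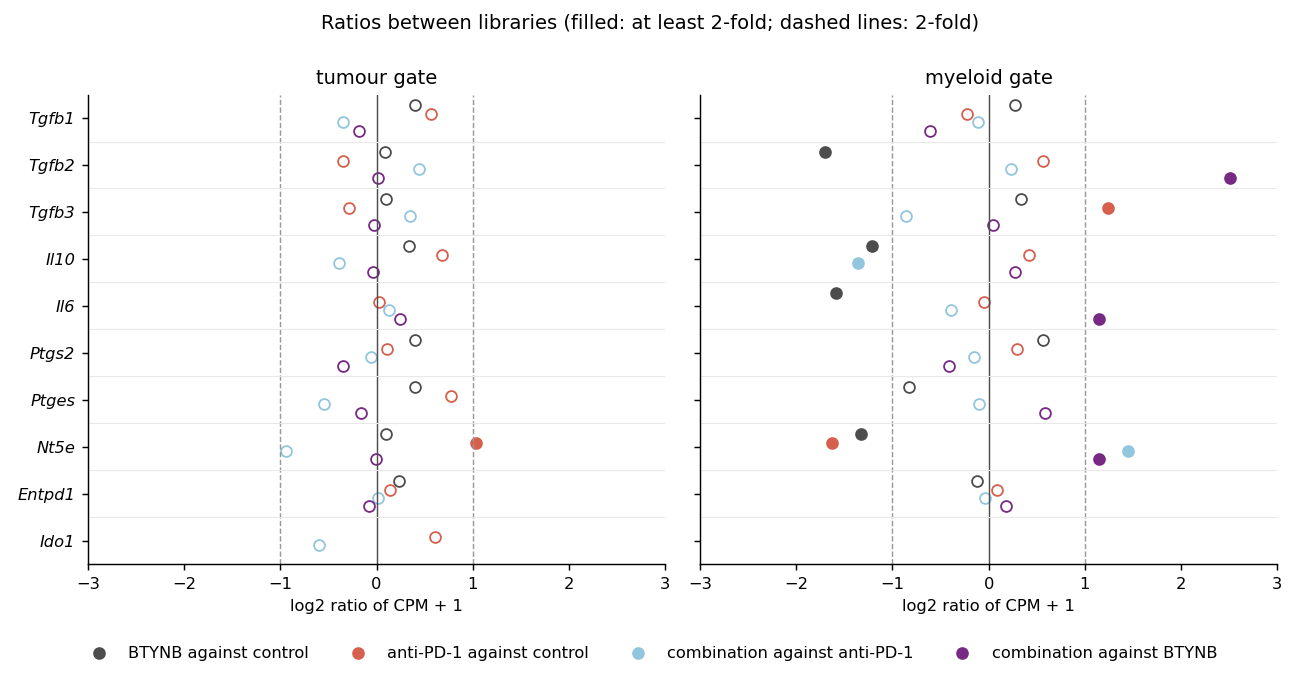
Log2 ratio of CPM + 1 for each member in tumour-gated cells (left) and myeloid-gated cells (right), for the 4 contrasts between libraries. Each point is a ratio of 1 library to another, filled where it was at least 2-fold (dashed lines), and members with fewer than 20 UMIs over the 2 libraries have no point. In tumour cells 1 ratio was past 2-fold, Nt5e with anti-PD-1 against control at 1.04, and in myeloid cells 11 were, from -1.70 to 2.51.

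Tgfb2 and Tgfb3 were tumour-cell genes in this ascites. The tumour gate held 95.5%, 80.8%, 93.9% and 84.6% of all Tgfb2 UMIs of the control, BTYNB, anti-PD-1 and combination libraries, and 77.7% to 96.0% of those of Tgfb3. Tgfb2, the isoform that needs the co-receptor betaglycan for strong receptor binding, stood at 105 CPM in control tumour cells (interval 103 to 108, 7890 UMIs), 112 with BTYNB (109 to 115), 82.6 with anti-PD-1 (80.7 to 84.6) and 113 with the combination (110.1 to 116). Anti-PD-1 was the low library, and BTYNB and combination did not differ beyond their intervals. Its ratio to control was 0.79 (interval 0.76 to 0.81), a log2 ratio of -0.34. Tgfb3 was also lowest with anti-PD-1, at 48.2, 51.5, 39.5 and 50.5 CPM in the 4 libraries.

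Both ligands varied with the state of the tumour cells. In cycling cells, those with at least 3 UMIs of Mki67 and Top2a together, Tgfb2 stood at 71.3 CPM in control, 81.2 with BTYNB, 54.7 with anti-PD-1 and 80.3 with the combination. In cells with 0 such UMIs it stood at 138, 131, 111 and 138 CPM. The level in cycling cells was therefore 0.52, 0.62, 0.49 and 0.58 times that in the others, with no overlap of the intervals in any library, and for Tgfb3 it was 0.62, 0.73, 0.62 and 0.72 times. Cycling cells also had less of the 6 tumour markers, at 68.0% to 79.6% of the level of the whole tumour gate. Their median UMI numbers were higher, at 11967.5, 21693, 8599 and 13725.5 against 8463, 12983, 6229.5 and 10094.5 in the others. The part of marker level and depth in the result was not tested.

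The low Tgfb2 level of the anti-PD-1 library lay in cells that carried Cd24a, a surface glycoprotein gene. Tumour-gated cells with at least 3 Cd24a UMIs made up 16.8% of the kept cells of the anti-PD-1 library (2024 cells), against 3.80% in control, 0.809% with BTYNB and 2.12% in combination (148 to 298 cells). In anti-PD-1 these cells had 29.1 CPM of Tgfb2 and cells with 0 Cd24a UMIs had 108 CPM, a ratio of 0.27 (interval 0.25 to 0.30). In control, BTYNB and combination the same ratio was 0.88, 0.80 and 0.76. Among cells with 0 Cd24a UMIs, Tgfb2 stood at 108 CPM in control, 119 with BTYNB, 108 with anti-PD-1 and 119.6 with the combination, so that the anti-PD-1 library was no longer below control. The Cd24a-bearing cells of anti-PD-1 had 22.1% of the gate's level of the 6 tumour markers, against 73.7% to 95.2% in the other libraries, so they carried the keratin genes of the gate but less of the other tumour markers, and whether they are ID8 cells was not tested.

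Other members went the other way in those cells. Within anti-PD-1, cells with at least 3 Cd24a UMIs had 15.1 against 6.65 CPM of Tgfb1 (2.28 times, interval 1.94 to 2.68) and 62.0 against 32.1 CPM of Ptgs2 (1.93 times, 1.79 to 2.08). They had 12.6 against 4.32 CPM of Ptges (2.91 times, 2.41 to 3.52). In the other 3 libraries the ratio was 0.65 to 1.12 for Tgfb1, 0.52 to 0.86 for Ptgs2 and 0.612 to 0.945 for Ptges. Il10 was lower in those cells of anti-PD-1, at 2.81 against 7.16 CPM, and Tgfb3 was too, at 16.4 against 48.8 CPM. Nt5e alone among the members with values in each library was higher in Cd24a-bearing cells in all 4, by 1.69, 1.55, 1.56 and 1.67 times, with intervals that left out 1. Cd24a-bearing cells also had higher median UMI numbers in each library. These were 14000.5, 28503, 9323.5 and 18012, against 9307, 14123, 6429.5 and 11011.5 in cells with 0 Cd24a UMIs. The part of depth in the Cd24a ratios of all members was not tested.

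**Figure D3:**
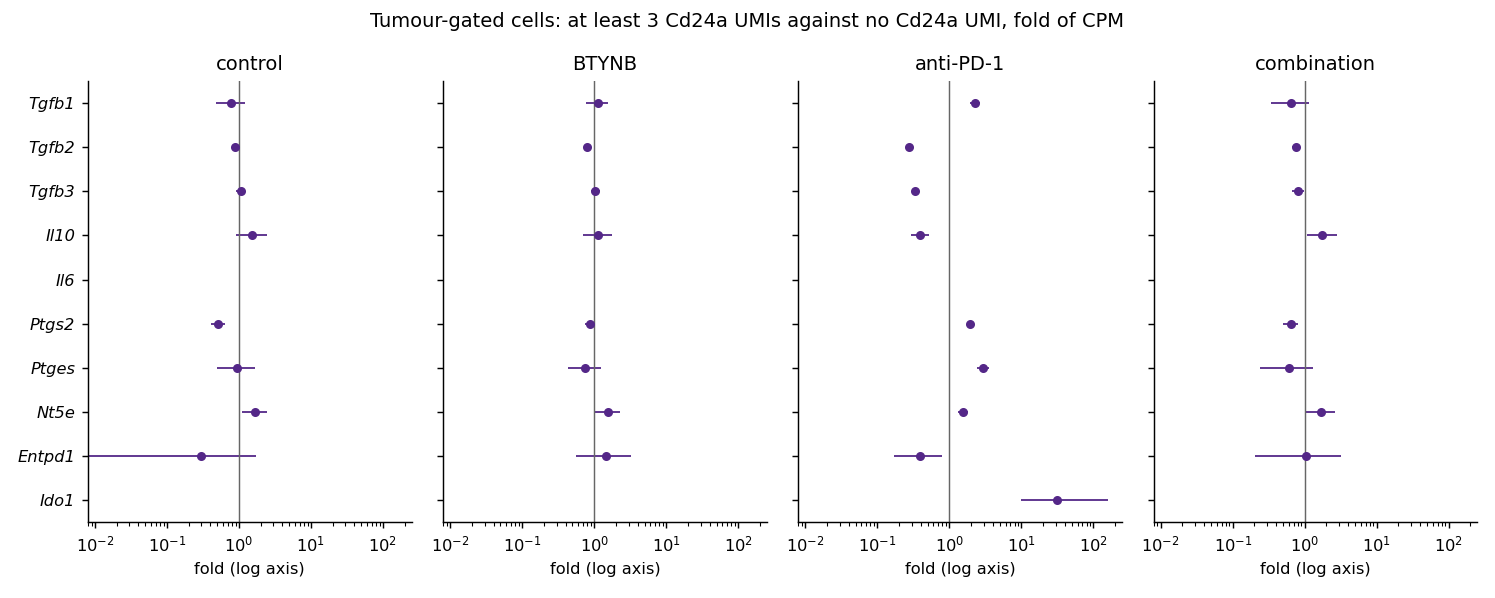
Ratio of the CPM in tumour-gated cells with at least 3 Cd24a UMIs to that in tumour-gated cells with 0 Cd24a UMIs (fold, log axis), for each member and library. Bars are 95% intervals of the ratio (counting error only), the line marks equal levels, the interval of Entpd1 in control runs past the left edge, and members with fewer than 20 UMIs over both cell sets have no point. In anti-PD-1, Tgfb2, Tgfb3, Il10 and Entpd1 lay below 1 and Tgfb1, Ptgs2, Ptges, Nt5e and Ido1 above it.

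In myeloid cells Tgfb2 had the largest ratio between libraries of the measured members. It had 29 UMIs in control (16.9 CPM, interval 11.3 to 24.2), 74 with BTYNB (4.49 CPM, 3.52 to 5.63), 44 with anti-PD-1 (25.5 CPM, 18.6 to 34.3) and 291 with the combination (30.3 CPM, 26.9 to 34.0). BTYNB was thus below the other 3, which did not differ from their neighbours in this order beyond their intervals. The log2 ratio was -1.70 for BTYNB against control (0.27 times, interval 0.17 to 0.42) and 2.51 for combination against BTYNB (6.75 times, 5.21 to 8.83). Tumour RNA at the level of the 6 markers would give 55.1%, 65.7%, 49.0% and 23.2% of these levels. With that amount subtracted, combination against BTYNB was 3.25 on the log2 scale. The UMIs were uneven between cells: 10 cells held 62.1% of them in control, 37.8% with BTYNB, 59.1% with anti-PD-1 and 33.7% with the combination.

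By finer myeloid gate, the difference in Tgfb2 was present both in C1q-bearing and in Ly6c2-bearing cells. The first were cells with at least 5 UMIs of the C1q genes, complement genes of tissue macrophages. They had 16.8 CPM of Tgfb2 in control, 4.50 with BTYNB, 27.1 with anti-PD-1 and 37.7 with the combination. Cells with at least 3 Ly6c2 UMIs, a monocyte gene, had 5.83 CPM with BTYNB and 27.9 CPM in combination. Myeloid cells with a UMI of Gata6, a transcription factor gene of resident peritoneal macrophages, were looked at after these levels had been seen. They had 65.5 CPM in combination against 21.0 CPM in myeloid cells without one, 3.11 times as much (interval 2.45 to 3.95). In BTYNB the values were 7.31 and 4.31 CPM. In anti-PD-1, 11 of the 33 UMIs in Gata6-bearing cells came from 1 cell.

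Myeloid Tgfb3 had 7, 89, 19 and 54 UMIs in control, BTYNB, anti-PD-1 and combination (4.07, 5.40, 11.0 and 5.62 CPM). The higher value of anti-PD-1 against control had a log2 ratio of 1.24, from 19 and 7 UMIs (2.71 times, interval 1.09 to 7.62). Expected tumour RNA was 54.2% of the anti-PD-1 level and 104% of the control level.

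Tgfb1, the isoform most made by leukocytes, was low in tumour cells and higher in the myeloid gate of each library. Its tumour-cell level was 5.69 CPM in control (5.17 to 6.26), 7.86 with BTYNB (7.16 to 8.62), 8.91 with anti-PD-1 (8.28 to 9.58) and 6.79 with the combination (6.12 to 7.51). Neighbours in the order control, combination, BTYNB, anti-PD-1 had overlapping intervals. In myeloid cells it stood at 36.1, 43.9, 30.8 and 28.5 CPM in control, BTYNB, anti-PD-1 and combination, and combination against BTYNB was -0.61 on the log2 scale. Leukocyte numbers also differed between libraries, and the tumour gate held 80.7% of all Tgfb1 UMIs in control, 17.1% with BTYNB, 86.6% with anti-PD-1 and 43.9% with the combination.

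In the B gate Tgfb1 had 557 UMIs with BTYNB (41.9 CPM) and 48 in combination (15.2 CPM), a log2 ratio of -1.40 (0.36 times, interval 0.26 to 0.49). In B cells with at most 2 keratin UMIs it stood at 67.4 CPM with BTYNB (61.6 to 73.6, 3204 cells) and 30.1 CPM in combination (19.3 to 44.8, 115 cells). The difference was not present when the cells of both libraries had at least 5115 UMIs, the highest of the libraries' lowest UMI numbers: the log2 ratio was then -0.06, with 383 BTYNB and 286 combination B cells. In BTYNB, NK cells (at least 2 UMIs of Ncr1 and Klrb1c, none of Cd3, outside the gates) had 104 CPM (87.3 to 123, 390 cells). Its Treg cells had 72.4 CPM (49.5 to 102) and its CD8 T cells (a UMI of Cd8a, none of Cd4 or Foxp3) 34.5 CPM, all with at most 2 keratin UMIs, and as gated the Treg level was 1.91 times the CD8 level (interval 1.24 to 2.88). Thinned to 1000 UMIs a cell, 8.51% of NK cells and 6.39% of B cells of BTYNB had a Tgfb1 UMI, against 0.976% of its tumour cells (unthinned 25.1%, 12.8% and 11.0%, at median depths of 2851.5, 1950 and 15221 UMIs).

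In the T gate Tgfb2 and Tgfb3 were higher in combination, as were the tumour markers. Tgfb2 stood at 23.0 CPM with BTYNB and 56.1 in combination (log2 ratio 1.25) and Tgfb3 at 11.2 and 26.2 (1.15). Expected tumour RNA was 104% and 111% of these Tgfb2 levels and 101% and 100.0% of these Tgfb3 levels. In T cells that met no other gate and had at most 2 keratin UMIs, the log2 ratios changed sign, to -0.70 and -0.71. With free RNA subtracted from the levels of the whole T gate, both log2 ratios were 0.00. The part of tumour RNA in these ratios was not tested further.

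Il10 is an anti-inflammatory cytokine that limits antigen presentation. In tumour cells it stood at 3.43 CPM in control (3.02 to 3.87), 4.58 with BTYNB (4.04 to 5.16), 6.09 with anti-PD-1 (5.57 to 6.64) and 4.43 with the combination (3.89 to 5.01). Control was lowest and anti-PD-1 highest beyond their intervals, while those of BTYNB and combination overlapped. Of all Il10 UMIs, 79.6%, 44.8%, 83.9% and 59.1% lay in the tumour gate.

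In myeloid cells Il10 had 45 UMIs in control (26.2 CPM, 19.1 to 35.1), 177 with BTYNB (10.7 CPM, 9.21 to 12.4), 61 with anti-PD-1 (35.4 CPM, 27.1 to 45.5) and 127 with the combination (13.2 CPM, 11.0 to 15.7). The libraries without BTYNB were thus higher than both libraries with it. The log2 ratio was -1.21 for BTYNB against control (0.41 times, interval 0.29 to 0.58) and -1.36 for combination against anti-PD-1 (0.37 times, 0.27 to 0.52). Within C1q-bearing cells the order was the same, at 30.8, 16.0, 37.6 and 16.0 CPM. C1q-bearing cells were 1550 of the 3134 myeloid cells of BTYNB and 242 of the 292 of control. Ly6c2-bearing cells, with 5.07 CPM of Il10 in the former, numbered 835 and 16. The 10 cells with most Il10 UMIs held 39.4% to 64.4% of those of the gate.

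Among T cells of BTYNB with at most 2 keratin UMIs, Il10 stood at 43.0 CPM in Treg cells (25.9 to 67.2, 19 UMIs in 128 cells), 13.2 in CD4 cells without Foxp3 and 3.17 in CD8 cells (8 UMIs in 870 cells). Treg cells as gated had 9.10 times the level of CD8 cells (interval 4.12 to 21.2). Combination held 11 Treg cells, with 0 Il10 UMIs, which allows up to 29.9 CPM.

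Il6 is a cytokine that acts on tumour and immune cells through the shared receptor subunit gp130. It was a myeloid gene here: 68.6%, 72.6%, 63.0% and 80.1% of its UMIs lay in the myeloid gate, and tumour cells had 6 to 17 UMIs a library, which is 0.104 to 0.305 CPM. Myeloid cells had 35 UMIs in control (20.4 CPM, 14.2 to 28.3), 101 with BTYNB (6.12 CPM, 4.99 to 7.44), 34 with anti-PD-1 (19.7 CPM, 13.7 to 27.6) and 142 with the combination (14.8 CPM, 12.4 to 17.4). BTYNB was below the other 3, whose intervals overlapped. The log2 ratio was -1.59 for BTYNB against control (0.30 times, interval 0.20 to 0.46) and 1.15 for combination against BTYNB (2.41 times, 1.86 to 3.15). C1q-bearing cells had 23.1, 8.24, 17.9 and 16.3 CPM. Among finer gates of at least 50 cells in these 2 libraries, the highest level was in cells with at least 3 UMIs of Retnla, a gene of alternatively activated macrophages: 21.3 CPM with BTYNB (16 UMIs) and 33.9 CPM in combination (52 UMIs). These cells were 99 of the 3134 myeloid cells of BTYNB and 186 of the 1258 of combination. Expected tumour RNA was at most 2.60% of the myeloid level of Il10 and 0.149% of that of Il6 in any library.

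**Figure D4:**
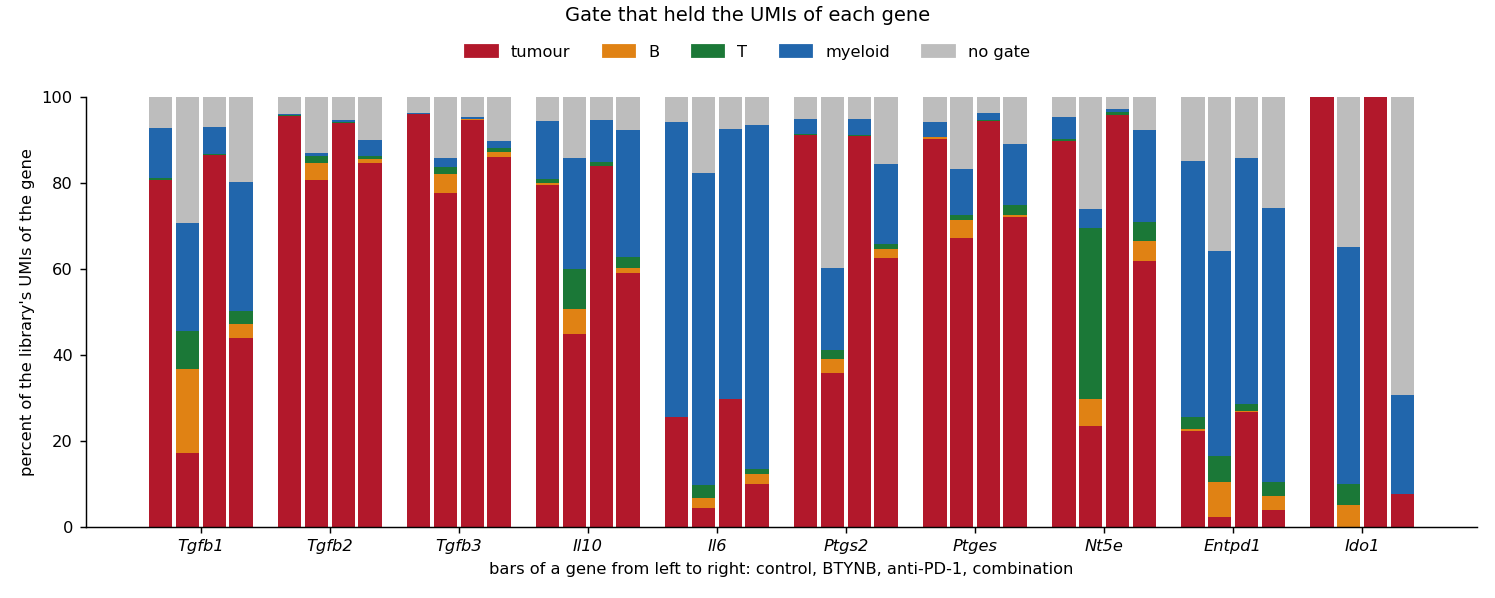
Share of each library's UMIs of a member (percent of its UMIs) that lay in the tumour, B, T and myeloid gates or in no gate. The 4 bars of a gene are control, BTYNB, anti-PD-1 and combination, and cells meeting several gates were counted in the first of the order in the legend. Tgfb2 and Tgfb3 lay mostly in the tumour gate in each library, Il6 lay mostly in the myeloid gate, and for Nt5e the largest share of the BTYNB library, 39.8%, lay in the T gate.

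Ptgs2 encodes cyclooxygenase-2, the inducible enzyme of prostaglandin synthesis. In tumour cells it stood at 37.8 CPM in control (36.4 to 39.2), 50.1 with BTYNB (48.3 to 52.0), 40.7 with anti-PD-1 (39.3 to 42.1) and 39.2 with the combination (37.6 to 40.9). BTYNB was above the other 3 beyond their intervals, at 1.33 times the control level (interval 1.26 to 1.40). In myeloid cells the order was the same, with 65.8 CPM in control (54.2 to 79.1), 97.6 with BTYNB (92.8 to 102), 81.2 with anti-PD-1 (68.3 to 95.9) and 72.9 with the combination (67.6 to 78.5). The intervals of BTYNB and anti-PD-1 overlapped, as did those of anti-PD-1, combination and control. The myeloid log2 ratio of BTYNB to control was 0.56. Under the alternatives it ran from 0.08 (at least 5115 UMIs per cell) to 0.96 (mean over cells). Combination against BTYNB was -0.41, and ran from -0.87 (mean over cells) to 0.01 (at least 5115 UMIs per cell). Ptges, the terminal synthase of prostaglandin E2, stood at 3.33, 4.70, 6.43 and 4.10 CPM in tumour cells, highest with anti-PD-1 (1.93 times control, log2 ratio 0.78), and had 9 to 47 UMIs a library in myeloid cells (2.85 to 5.82 CPM). In cycling tumour cells its level was 0.46, 0.47, 0.80 and 0.52 times that in the others.

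Neutrophils had the highest Ptgs2 level of any gate of the BTYNB library. Cells with at least 10 UMIs of S100a8 and S100a9 and at least 1 of Csf3r, outside the gates, numbered 442 with BTYNB, 2 in control and 0 with anti-PD-1 and combination. Their 1296 Ptgs2 UMIs gave 1892 CPM, and they were part of the 3217 UMIs, 39.7% of the library's Ptgs2, that lay in no gate. Their median UMI number was 1331.5, below the lowest UMI number of any cell of the other libraries, so a cell of that size was in none of them. Thinned to 1000 UMIs, 53.3% of neutrophils had a Ptgs2 UMI (59.5% unthinned), against 1.26% of conventional type 1 dendritic cells (cDC1, at least 2 UMIs of Xcr1 and Clec9a), where 3.12% had one unthinned at a median of 7409.5 UMIs. Mature dendritic cells, with at least 3 UMIs of Ccr7 and Fscn1, had 232 CPM of Ptgs2 with BTYNB (209.6 to 256) and 174 in combination (141 to 212). The cDC1 had 7.49 and 11.2 CPM.

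Myeloid Ptgs2 also differed by finer gate in opposite directions. In Ly6c2-bearing cells it stood at 121 CPM with BTYNB and 34.9 in combination, and in Retnla-bearing cells at 57.2 and 139 CPM, with no overlap of the intervals in either. The summed level of the neutrophil markers in the myeloid gate was 409 CPM in control, 1887 with BTYNB, 51.6 with anti-PD-1 and 38.2 with the combination, and its part in the myeloid Ptgs2 values was not tested.

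The gate with the largest share of Nt5e UMIs differed between libraries, as did the cell numbers of the gates. Tumour-gated cells were 90.8% of the kept cells in control and 19.7% with BTYNB, and T-gated cells 0.281% and 13.6%. The tumour gate held 89.7% of Nt5e UMIs in control, 95.8% with anti-PD-1 and 61.8% with the combination, but 23.4% with BTYNB, where T cells held 39.8%. In tumour cells it had 312 UMIs in control (4.16 CPM, 3.71 to 4.65), 261 with BTYNB (4.51 CPM, 3.98 to 5.09), 790 with anti-PD-1 (9.58 CPM, 8.92 to 10.3) and 251 with the combination (4.50 CPM, 3.96 to 5.09). Anti-PD-1 was above the other 3, whose intervals overlapped. It was 2.30 times the control level (interval 2.02 to 2.63, log2 ratio 1.04), and combination was 0.47 times anti-PD-1 (0.41 to 0.54, log2 ratio -0.94). Cells with 0 Cd24a UMIs had 3.98, 4.62, 8.59 and 4.38 CPM, so the difference was also present without the Cd24a-bearing cells. The call at 2-fold depended on the processing: the log2 ratio to control was 0.96 without the 5% of cells with most UMIs and 0.95 as a mean over cells.

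Myeloid Nt5e rested on few UMIs: 19 in control (11.1 CPM, 6.66 to 17.3), 63 with BTYNB (3.82 CPM, 2.94 to 4.89), 5 with anti-PD-1 (2.90 CPM, 0.942 to 6.77) and 93 with the combination (9.68 CPM, 7.81 to 11.9). Both libraries with a single agent were below control and combination. The log2 ratio to control was -1.32 with BTYNB (0.35 times, interval 0.20 to 0.61) and -1.63 with anti-PD-1 (0.26 times, 0.08 to 0.73). Combination against BTYNB was 1.15 (2.53 times, 1.82 to 3.55) and against anti-PD-1 1.45 (3.34 times, 1.38 to 10.5). Expected tumour RNA was 50.0% of the anti-PD-1 level and 2.89% to 3.32% of the others. In combination, 91 of the 93 UMIs lay in C1q-bearing cells (12.8 CPM), and Gata6-bearing cells had 24.0 CPM against 5.91 CPM without Gata6 (4.06 times, 2.64 to 6.23).

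T cells had the highest Nt5e level of the 4 gates of the BTYNB library: 460 UMIs, 60.2 CPM (54.8 to 65.9). In combination they had 25 UMIs, 18.2 CPM (11.8 to 26.9), a log2 ratio of -1.67 (0.30 times, interval 0.19 to 0.45). With at most 2 keratin UMIs the levels were 70.4 CPM (64.0 to 77.3, 2381 cells) and 24.6 CPM (14.3 to 39.3, 96 cells), so the difference was present without keratin-bearing cells. Depth moved with the difference: among T cells with at least 5115 UMIs, 241 with BTYNB and 158 in combination, the log2 ratio was -0.10. The T cells of combination all passed this limit, and the median T cell of BTYNB had 2149 UMIs. Thinned to 1000 UMIs, 7.67% of BTYNB T cells (interval 6.65% to 8.80%) and 3.16% of combination T cells (1.04% to 7.23%) had an Nt5e UMI, where unthinned shares were 14.7% and 13.9%. With both the floor and the thinning the shares were 4.15% and 3.16%. Of the cDC1, 0 of 317 in BTYNB had one, which is 0% up to 1.16%.

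Within the BTYNB T cells, Nt5e stood at 109 CPM in Treg cells (80.1 to 144, 48 UMIs), 122 in CD4 cells without Foxp3 (101 UMIs in 341 cells) and 52.8 in CD8 cells (133 UMIs in 870 cells), all with at most 2 keratin UMIs. As gated, Treg cells had 2.01 times (interval 1.44 to 2.78) and CD4 cells 2.24 times (1.72 to 2.91) the CD8 level. In combination, 55 CD8 cells with at most 2 keratin UMIs had 4 Nt5e UMIs (10.3 CPM), and 11 Treg cells as gated had 7 (69.8 CPM). NK cells and neutrophils of BTYNB had 21.1 and 36.5 CPM.

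**Figure D5:**
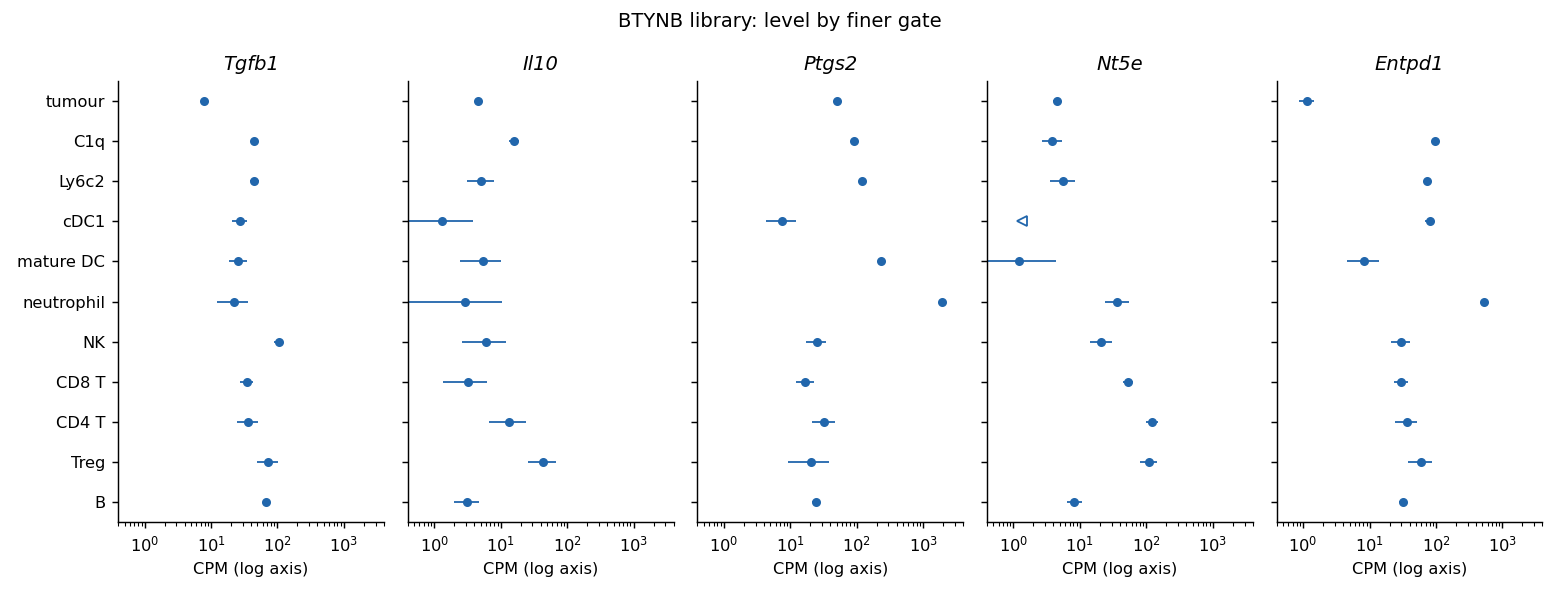
Level (CPM, log axis) of 5 members in the BTYNB library by gate and finer gate, with exact Poisson 95% intervals and an open triangle for a count of 0 (the limit of 3 UMIs). T and B gates are shown with at most 2 keratin UMIs. Neutrophils had the highest levels of Ptgs2 and Entpd1, CD4 T and Treg cells the highest of Nt5e, Treg cells the highest of Il10 and NK cells the highest of Tgfb1.

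Entpd1 was a myeloid gene whose level was alike across libraries. Myeloid cells had 172 UMIs in control (100.1 CPM, 85.7 to 116), 1516 with BTYNB (91.9 CPM, 87.3 to 96.7), 184 with anti-PD-1 (107 CPM, 91.9 to 123) and 1001 with the combination (104 CPM, 97.8 to 111). Combination was above BTYNB by 1.13 times with intervals that did not overlap, and all other pairs overlapped. Log2 ratios between libraries ran from -0.12 to 0.18. The share of myeloid cells with a UMI, thinned to 1000 UMIs, was 8.90%, 9.55%, 8.85% and 9.46% (36.6%, 30.5%, 35.9% and 46.7% unthinned), against 0.0422% to 0.167% of tumour cells (0.723% to 1.61% unthinned). In tumour cells the level was 0.827, 1.14, 1.01 and 1.02 CPM, of which myeloid RNA at the level of its markers would give 33.4%, 29.3%, 52.2% and 79.6%.

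By finer gate, neutrophils of BTYNB had 529 CPM of Entpd1 (476 to 586), and 40.7% of them had a UMI after thinning. The cDC1 had 80.6 CPM with BTYNB and 113 in combination, while mature dendritic cells had 8.38 and 5.32 CPM. In BTYNB, Treg cells had 58.8 CPM (38.4 to 86.2) and CD8 T cells 29.8 CPM, and as gated the ratio was 2.04 (interval 1.28 to 3.17). T cells with at most 2 keratin UMIs had 29.9 CPM with BTYNB (187 UMIs) and 75.1 CPM in combination (52 UMIs, 56.1 to 98.5). Entpd1 was thus higher and Nt5e lower in these combination T cells, without matching for depth or free RNA. Of these T cells, CD8 cells of combination had 33 Entpd1 UMIs (85.3 CPM). Myeloid RNA in the T gate, an upper value since lymphocytes can express some of the markers, was 9.52% of the myeloid level with BTYNB and 19.2% in combination. The Entpd1 expected from it was 35.8% and 51.1% of the level of the whole T gate. The log2 ratio of Entpd1 in that gate, combination against BTYNB, was 0.65. It ran from 0.27 (free RNA subtracted) to 1.61 (cells in exactly 1 gate) under the alternatives. For Nt5e the ratio was -0.10 among T cells with at least 5115 UMIs, as given above.

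Both ectonucleotidases were seldom caught in the same cell. After thinning, 9 of 2451 BTYNB T cells had a UMI of each, where the product of the shares gives 4.07 cells. Among CD4 cells without Foxp3 it was 5 of 352 (product 2.11) and among neutrophils 7 of 403 (product 6.51). In tumour cells it was 0 in each library. These counts are too small to order the cell types.

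Ido1, the interferon-inducible enzyme that degrades tryptophan, had 79 UMIs over all libraries. Tumour cells had 1 UMI in control, 0 with BTYNB (up to 0.0518 CPM), 45 with anti-PD-1 (0.546 CPM, 0.398 to 0.730) and 1 with the combination. The anti-PD-1 level was 40.9 times the control level with an interval from 6.98 to 1651, because it rests on 1 UMI, and on the log2 scale with a pseudocount it was 0.61. Of the 45 UMIs, 37 lay in cells with at least 3 Cd24a UMIs and 3 in cells with 0, a ratio of 31.2 (interval 9.87 to 158). These 37 are UMIs of the cells described above as low in tumour markers. Myeloid cells had 0, 11, 0 and 3 UMIs, where 0 allows up to 1.75 CPM in control and 1.74 with anti-PD-1. The cDC1 had 1 UMI with BTYNB and 6 in combination (2.92 CPM).

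Other genes of the same pathways were read from 6 lists, whose counts are to be set against the shares of all measured genes repeated with each contrast. In tumour cells, 0 of 18 measured genes of TGF-beta activation and receptors and 0 of 12 TGF-beta response genes were past 2-fold in any of the 4 contrasts. Of those 12 response genes, 10 were above 0 in BTYNB against control and 10 in anti-PD-1 against control. Their median log2 ratio was 0.51 and 0.19 in these contrasts, beside 0.02 and -0.04 for all genes. In combination against anti-PD-1 and against BTYNB, 6 and 4 of them were above 0. The share of all genes above 0 is not given, so these counts have none beside them. Of the IL-10 and IL-6 signalling genes, 0 of 15 were past 2-fold. In anti-PD-1 against control, where 1.90% of all genes were higher, 1 of 14 prostaglandin genes was, the prostaglandin transporter gene Slco2a1 (137 against 21.0 CPM, log2 ratio 2.65), and 2 of 13 adenosine genes were, Enpp1, which makes AMP from ATP (53.8 against 18.2 CPM, 1.51), and the nucleoside transporter gene Slc29a1 (336 against 164 CPM, 1.03). Of the tryptophan and aryl hydrocarbon receptor genes 1 of 15 was higher, the receptor target Cyp1a1, with 329 UMIs against 0, at least 99.7-fold higher against a floor of 3 UMIs in control. In combination against anti-PD-1, Slco2a1 (-2.66), Enpp1 (-1.66), Slc29a1 (-1.67) and Cyp1a1 (1 against 329 UMIs, 0.00449 times with an interval of 0.000113 to 0.0252) were lower and the prostaglandin receptor gene Ptger1 was higher (1.04). In BTYNB against control 1 of 13 adenosine genes was lower, the phosphatase gene Alpl (-1.04), and in combination against BTYNB none of the lists held a gene past 2-fold. The median log2 ratio of the other lists and contrasts in tumour cells lay between -0.09 and 0.23.

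In myeloid cells of BTYNB against control, 6.50% of all genes were higher and 8.41% lower past 2-fold, so that counts of 1 in a list of 11 to 16 genes are near that share. Here 5 of 16 genes of TGF-beta activation and receptors were lower and 0 higher, among them Tgfbr3, which encodes betaglycan (-1.87), and the latent TGF-beta binding protein gene Ltbp3 (-1.22). Most of these rested on few UMIs. In BTYNB and control, Tgfbr3 had 17 and 11 (0.16 times, interval 0.07 to 0.38), Ltbp4 28 and 12 and Itgb8 22 and 8. Ltbp3 had 308 and 77 (0.42 times, interval 0.32 to 0.54). Of 11 response genes, 3 were lower, among them Ccn2 (-2.29) and Id1 (-1.20), and 2 higher, among them the inhibitory SMAD gene Smad7 (1.11). The prostaglandin genes split, with 3 of 13 lower, including the prostacyclin synthase gene Ptgis (-2.80) and Ptgs1 (-1.72), and 2 higher, including the receptor gene Ptger4 (1.04). Of 11 tryptophan and aryl hydrocarbon receptor genes 3 were higher, Kynu (2.13), Kmo (1.64) and the receptor gene Ahr (84.5 against 20.4 CPM), and Cyp1b1 was lower (-1.88). Cyp1b1 stood at 12.1 CPM in myeloid cells of BTYNB and 47.2 in those of control, and at 364 and 366 CPM in their tumour cells. Of 14 IL-10 and IL-6 signalling genes 2 were higher, Jak2 (1.40) and Socs1 (1.05). Of 12 adenosine genes 2 were higher, among them Dpp4 (2.14), and Enpp1 was lower (-1.14). The median log2 ratio was -0.15 for activation, -0.27 for response, 0.48 for signalling, 0.12 for prostaglandin, -0.35 for adenosine and 0.53 for tryptophan genes, beside -0.05 for all genes. Tumour RNA, by the 6 markers, was 8.83% of its tumour-gate level in myeloid cells of control and 2.63% with BTYNB. Tumour cells of these libraries had 92.3 and 87.9 CPM of Ccn2, and myeloid cells 12.2 and 1.70. For Id1 the values were 181 and 291 CPM in tumour cells and 20.4 and 8.31 in myeloid cells. The part of tumour RNA in these ratios and counts was not tested.

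In combination against anti-PD-1, the same contrast with the antibody present (5.19% of all genes higher, 4.47% lower), 3 of 11 response genes were lower, among them Ccn2 (-1.42) and Id1 (-1.11), and 0 were higher. Kmo (1.97), Kynu (1.70) and Ahr (1.65) were higher among 10 tryptophan genes, whose median log2 ratio was 0.58, beside -0.02 for all genes. Of the adenosine genes, 1 of 10 was higher (Dpp4, 1.93) and 2 were lower (Enpp1, -1.69, and Cd38, -1.51). Of the activation genes 1 of 16 was higher (Ltbp1, 2.41) and 1 lower (Ltbp4, -1.40), Slco2a1 was lower (-2.04) and 0 of 14 signalling genes were past 2-fold. Tumour cells of combination and anti-PD-1 had 97.7 and 106 CPM of Ccn2, 283 and 173 of Id1 and 20.8 and 137 of Slco2a1. Myeloid cells had 7.18 and 20.9, 15.9 and 35.4, and 2.91 and 15.1 CPM of the same genes. In combination against BTYNB (2.22% higher, 1.34% lower) the latent binding protein gene Ltbp1 stood at 25.9 against 1.21 CPM (log2 ratio 3.60), and Tgfbr3 (2.05), Ltbp4 (1.27), Ccn2 (1.60), Ptgis (2.15) and Ptgs1 (1.29) were also higher, while Tgfbi was lower (-1.27). Of the remaining lists, the tryptophan list held 1 higher gene of 11, Cyp1b1 (1.07), and 0 of 14 signalling and 0 of 12 adenosine genes were past 2-fold. In anti-PD-1 against control (2.26% higher, 2.14% lower) 2 of 14 activation genes were higher (Smad3, 1.17, and Ltbp4, 1.11), as was Slco2a1 (1.01), and the other 4 lists held no gene past 2-fold. Tumour RNA in the myeloid gate, by the 6 markers, was 8.83%, 2.63%, 15.1% and 6.22% of its tumour-gate level in the 4 libraries. Its part in these ratios and counts was not tested.

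In the T gate, where 8.25% of all genes were higher and 8.56% lower in combination against BTYNB, 5 of 12 prostaglandin genes were higher and 0 lower, led by Ptgds (2.04) and Tbxas1 (1.32), and 2 of 8 adenosine genes were lower, the adenosine receptor gene Adora2a (-1.84) and the adenosine kinase gene Adk (-1.23). Of the activation genes 4 of 17 were higher and 3 lower, of the response genes 2 of 11 and 1, of the signalling genes 1 of 13 and 2, and of the tryptophan genes 1 of 10 and 1. The median log2 ratio was 0.86 for the prostaglandin list and -0.46 for the adenosine list, beside 0.04 for all genes of the T gate. In the B gate, where 2.17% of all genes were higher and 8.61% lower, 4 of 11 tryptophan genes were lower, led by Kynu (-1.57) and Il4i1 (-1.35), and 2 of 11 adenosine genes were lower, Dpp4 (-1.36) and Cd38 (-1.05). The numbers higher and lower in B cells were 1 and 0 of 16 activation genes, 1 and 2 of 11 response genes, 0 and 2 of 13 signalling genes and 1 and 1 of 13 prostaglandin genes. The median of the tryptophan list was -0.63, beside -0.01 for all genes. Tumour RNA and depth differed between these gates as given above, and their part in these counts was not tested.

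Over the 12 library and gate units of at least 50 cells, Pearson's r of log2(CPM + 1) was used to name the genes most like each member, among 16871 genes with at least 100 UMIs. The units share libraries and gates, so r mostly describes which gates hold a gene. Tgfb2 was most like Nptxr (0.971), Bcam (0.970) and Dmwd (0.969), and Tgfb3 like Masp1 (0.993), Ermp1 and Src (both 0.991). Tgfb1 was most like Slfn8 and Baz2a (both 0.983) and Neurl3 (0.981), and Entpd1 like Evi2a, Eif4e3 and Fgr (each 0.996). Il10 was most like Fpr1 (0.965), Marco (0.964) and Clmn (0.962), Il6 like Fabp7 (0.994), Lilra5 (0.993) and Gm26716 (0.992), and Ptgs2 like Cxcl16 (0.969), Gm37168 (0.965) and Lrp1 (0.961). Ptges (Emc1 0.930, Ywhag 0.900 and Aifm2 0.888), Nt5e (Dnaja4 0.937, Scart1 0.920 and 2010016I18Rik 0.917) and Ido1 (Antxr2 0.903, Arhgef40 0.769 and Dgkg 0.763) had looser matches. Between members, r was 0.907 for Tgfb2 with Tgfb3, 0.934 for Il10 with Il6, 0.900 for Tgfb1 with Entpd1 and -0.810 for Tgfb1 with Tgfb2.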

How the data were processed

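The authors captured cells on the BD Rhapsody platform, processed reads with the vendor's Sequence Analysis Pipeline (genome build GRCm39 by the submitters' processing notes) and deposited 1 matrix of raw UMI counts per library. The deposited values were whole counts, used as they stand. Cells with fewer than 200 genes or more than 33% mitochondrial UMIs were removed. The numbers are the study's, but it took mitochondrial genes from MitoCarta, which also holds nuclear genes, while genes of the prefix mt- were used here, so this filter differs from it. It left 7834, 18283, 12019 and 7042 cells in the order control, BTYNB, anti-PD-1, combination. Median UMIs per deposited cell were 9430.5, 2562, 6908 and 9480.5. No gene column was left unused and no sample was left out.

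UMIs were summed per library and gate and given as CPM. Intervals (95%) were exact Poisson for levels, exact binomial (Clopper-Pearson) for shares and ratios, and cover counting error only. A count of 0 is given the limit of 3 UMIs. Log2 ratios used a pseudocount of 1 CPM, so they understate ratios of low genes, while folds are plain CPM ratios. Each group was 1 library, so differences have no replicate check and no p-value is given. No doublet caller was run. Doublets were handled by leaving out cells of several gates or of many keratin UMIs, and by leaving out the 5% of cells with most UMIs.

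The 10 genes, the gates, the pathway lists and the alternatives were chosen with earlier results of these data known. All members are named. Of the pathway lists, per gate and contrast, up to 4 genes were named, those with the largest log2 ratio of at least 1 in size, at least 20 UMIs and an interval that left out 0. For likeness of pattern the 3 genes with the highest r were named. The values of 1 listed gene are not reported here. Lrrc33, of the TGF-beta list, is an older name of Nrros, which the list also holds and the files give. The alternatives were another scaling (median of ratios, or totals without mitochondrial and ribosomal genes), no cell filter, a mitochondrial limit of 20%, stricter gates, a common UMI floor, pseudocounts of 0.1 and 10 CPM, a mean over cells, subtracted free RNA and the doublet steps. The Gata6 gate and finer T gates without keratin-bearing cells were added after the data had been seen. Ratios and intervals were tested on simulated data. Python 3.11.15, NumPy 2.4.6, SciPy 1.17.1, pandas 2.3.3 and Matplotlib 3.10.9 were used. Promoter windows came from RefSeq tables of GRCm38.p6.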

Additional observations from a re-analysis of the deposited data

Results flagged for a closer look

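In myeloid cells, Nt5e moved in opposite directions with the same agent depending on the other. BTYNB against control was -1.32 on the log2 scale, while combination against anti-PD-1 was 1.45. Anti-PD-1 against control was -1.63, while combination against BTYNB was 1.15. Each value rests on 1 library a group, on 19, 63, 5 and 93 UMIs in control, BTYNB, anti-PD-1 and combination, and the difference between the effects was not tested. The same 4 libraries enter both pairs, so the second pair adds no evidence to the first.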

How the results depend on the processing

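Each of 87 measured member ratios was recomputed under 12 alternatives, 1044 values in all. Of these, 958 stayed within the counting interval of the ratio, 84 left it, and 2 of a ratio past 2-fold changed sign: Tgfb2 and Tgfb3 in T cells, combination against BTYNB, at -0.70 and -0.71 when cells had to meet exactly 1 gate with at most 2 keratin UMIs. Of 16 ratios past 2-fold, 1 was past it under every alternative, Tgfb2 in myeloid cells of combination against BTYNB (1.48 to 3.25).

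With a pseudocount of 10 CPM the number of members past 2-fold in myeloid cells was 0 in each contrast except combination against BTYNB, where it was 1. The reported numbers were 4, 2, 2 and 3. That pseudocount shrinks every ratio of a low gene by construction. The shares of all genes given above belong to the reported setting, so counts under an alternative have no such share beside them. In tumour cells of anti-PD-1 against control it was 0 with a pseudocount of 10 CPM, 0 without the 5% of cells with most UMIs, 0 as a mean over cells and 2 with 0.1 CPM (1 as reported). In tumour cells of combination against anti-PD-1 it was 1 with scaling by the median of ratios and 2 with 0.1 CPM (0 as reported). The median of the measured members in tumour cells of BTYNB against control was 0.41 with 0.1 CPM (0.28 as reported).

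At the common floor of 5115 UMIs per cell, 0 members were past 2-fold in T cells (3 as reported) and 0 in B cells (1 as reported). In B cells it was 2 without the 5% of cells with most UMIs, 5 as a mean over cells and 4 with free RNA subtracted, and the median was 0.88 as a mean over cells (0.29 as reported). The causes were not tested. The shares of all genes past 2-fold, 16.8% in the T gate and 10.8% in the B gate, belong to the reported setting. Member counts under the alternatives cannot be judged against them. At that floor, myeloid Il10 in BTYNB against control (-0.92) and myeloid Il6 in combination against BTYNB (0.90) fell short of 2-fold, while myeloid Il10 (1.43) and Tgfb2 (1.28) in anti-PD-1 against control and myeloid Tgfb3 in combination against anti-PD-1 (-1.66) passed it. Myeloid Nt5e in combination against BTYNB fell short as a mean over cells (0.89).

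No paired analysis was possible because each group had 1 library. Depth limits Ido1, Il6 in tumour cells and all members in T and B cells of control and anti-PD-1, where 22 to 39 cells were gated. With at least 1000 UMIs asked of a gene, the genes most like Il10, Il6, Nt5e and Ido1 changed in part.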
